A study of Mactra quadrangularis with 2 samples.

Results

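Among 124752 transcript contigs (unigenes) of the clam digestive gland, 2 that resemble secreted protease inhibitors were well counted after exposure to BDE-47, a brominated flame retardant, and nearly absent from solvent controls. Unigene40530 (Unigene40530_All in the tables) best matches a WAP four-disulfide core domain protein and Unigene54882 (Unigene54882_All) best matches Cvsi-2, a serine protease inhibitor of the eastern oyster. They were picked by name from the tables with their ratios already known, so their own ratios describe the choice and were not tested. The BDE-47 clams, Mactra veneriformis (Mactra quadrangularis in the organism label), spent 3 days in water with a nominal 5 µg/L BDE-47 in 0.05% DMSO by volume. The control clams spent the same 3 days in water with 0.05% DMSO alone, so both groups carried the solvent. The submitters describe 3 replicates of 30 clams per group with glands pooled for RNA, but the tables hold 1 library per group. The sources used here do not say how the replicates entered that library, or how old the clams were.

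The BDE-47 library held 15.9 M counted fragments and the control library 15.6 M. With 1 library per group no difference has a replicate check, no p-value was computed, and every statement compares these 2 libraries. All intervals are exact 95% intervals of the counts and describe counting error only. PCR copies could not be told from separate molecules, so the intervals may be too narrow even for that. In a pooled gland, a change in the number of cells that make a transcript and a change in its amount per cell cannot be told apart.

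Proteases cut other proteins, and animals hold them in check with small inhibitors that block the active site. WAP domains (named for whey acidic protein) are short, disulfide-braced modules. In mammals, WAP proteins inhibit serine proteases or act against bacteria, and in abalone the WAP protein perlwapin is part of the nacre of the shell. Cvsi-2 was isolated from the eastern oyster, where it inhibits serine proteases of the subtilisin type. The digestive gland of a bivalve makes and takes up digestive enzymes, many of them proteases.

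Unigene40530 is 2156 bases long. It had 2397 fragments in the BDE-47 library (interval 2302 to 2495) and 2 in the control library (0.242 to 7.22). The libraries lay far apart for this unigene, and its control level rests on so few fragments that it is barely above none. Per length, its level was 69.7 FPKM (fragments per kilobase of contig, corrected for library size) in BDE-47 and 0.0594 FPKM in the control. Only 0.768% of all unigenes had a higher FPKM in the BDE-47 library, and 95.4% had a higher FPKM in the control library. The ratio of BDE-47 over control, as fragments per library total, was 1174, and its interval of 325 to 9696 shows how loosely 2 control fragments fix it. With 0.1 FPKM added to both levels, the log2 ratio was 8.77, which ranked 19 from the top among 89164 unigenes with at least 20 fragments.

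Unigene54882 is 571 bases long. It had 120 fragments in the BDE-47 library (99.5 to 143) and 3 in the control library (0.619 to 8.77). Again the libraries did not overlap within their counting intervals, but this unigene was less abundant than the WAP unigene in BDE-47. Its level was 13.2 FPKM in BDE-47 and 0.336 FPKM in the control. In the BDE-47 library 6.46% of unigenes had a higher FPKM, and in the control library 90.9% did. The ratio of BDE-47 over control was 39.2 (13.1 to 193), and the log2 ratio with 0.1 FPKM added was 4.93. The intervals of the ratios of the WAP and the Cvsi-2 unigene, 325 to 9696 and 13.1 to 193, did not overlap. The log2 ratios of these unigenes differed by 3.85 with 0.1 FPKM added, by 2.65 with 1 FPKM added and by 4.91 with none. Both unigenes passed the rule of size for a higher level in BDE-47, as did 12.4% of the 89164 unigenes with at least 20 fragments. That rule asks for a log2 ratio of at least 1 on FPKM plus 0.1, at least 20 fragments, and a counting interval that leaves out a ratio of 1. The comparison carries no weight, because the ratio was known when the unigenes were picked. The authors' deposited table also gave both as up, as it did 6.09% of all unigenes. Its false discovery rate was 0 for Unigene40530 and 6.02e-30 for Unigene54882, from an unstated test.

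The names rest on database matches of moderate strength. Unigene40530 matched human WAP four-disulfide core domain protein 3 in Swiss-Prot with a bit score of 85.9 (E-value 3e-16), and its first Nr match, an uncharacterized protein of the purple sea urchin, had a bit score of 75.9 (E-value 1e-11). Unigene54882 matched Cvsi-2 with a bit score of 50.4 (E-value 2e-06) and had no Nr match. Neither was matched to a KEGG or COG entry, and neither sequence was used here.

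Other unigenes with the same kind of match had the same pattern of few or no control fragments. They are described because of that shared match, and were singled out after their values were seen where they had fewer than 100 fragments. The tables describe only unigenes that the authors called as changed, so any WAP or Cvsi-2 unigene outside those calls carries no name, and the counts say nothing about the share that changed.

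In all, 4 described unigenes matched on WAP words, and a WAP protein named otherwise was not counted with them. Unigene34656, listed below with Kunitz matches and with 39 control fragments, could be one, since its domains were not examined. Unigene40531, 2174 bases long, shared both database matches and both scores of its matches with Unigene40530, and had 63 fragments in BDE-47 and 0 in the control, at least 20.6-fold higher against a floor of 3 control fragments. The sequences of the 2 contigs were not compared. If they share sequence, reads could be split between them, so their separate counts are uncertain. Summed, the pair had a log2 ratio of 8.81, close to that of Unigene40530 alone. Unigene57496, which matches perlwapin of the abalone nacre in Swiss-Prot, had 117 fragments in BDE-47 and 0 in the control, at least 38.2-fold higher. Unigene57498 had 103 fragments in BDE-47 and 0 in the control, at least 33.6-fold higher. It has the Nr match of Unigene57496, a WAP four-disulfide core domain protein 8-like protein of Nile tilapia. Its Swiss-Prot match is papilin, an extracellular matrix protein with Kunitz inhibitor domains, so it was also listed with Kunitz matches. Which domain of papilin it resembles was not examined. The 4 WAP unigenes together had 2680 fragments in BDE-47 and 2 in the control, and Unigene40530 supplied 2397 of the first sum and both fragments of the second.

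Cvsi-2 was matched by 5 described unigenes. After Unigene54882, the next was CL19209.Contig2, with 46 fragments in BDE-47 and 0 in the control, at least 15.0-fold higher. The 2 contigs of its cluster together had 55 fragments in BDE-47 and 2 in the control, a ratio of 26.9 (7.11 to 228). Unigene49686 had 25 fragments in BDE-47 and 0 in the control, at least 8.16-fold higher, and its match to Cvsi-2 was the strongest of the 5, with a bit score of 72.8 (E-value 2e-13). Unigene50519 had 22 fragments in BDE-47 and 1 in the control, a ratio of 21.5 (3.48 to 889). Unigene58763 had 13 fragments in BDE-47 and 0 in the control, under the minimum of 20 fragments, and its first Nr match is teneurin-2 of the Pacific oyster. These are short contigs of 225 to 346 bases with few fragments, and all 5 had at most 3 fragments in the control. Their sum was 226 fragments in BDE-47 and 4 in the control, a ratio of 55.3 (21.3 to 205).

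**Figure D1:**
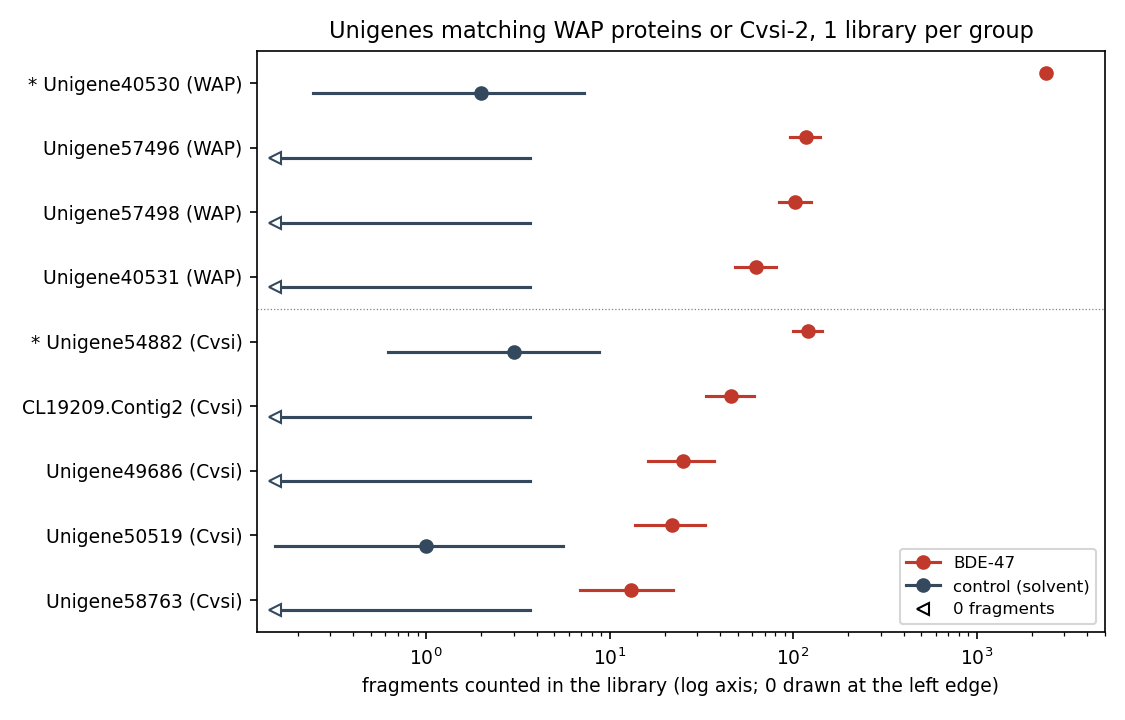
Fragments counted in the BDE-47 library (red, upper) and the control library (dark, lower) for the 9 described unigenes that match WAP proteins or Cvsi-2, on a log axis. Lines are exact 95% counting intervals, open triangles stand for 0 fragments, and asterisks mark the Unigene40530 and Unigene54882 rows. Every BDE-47 value, from 13 to 2397 fragments, lies above every control value, from 0 to 3.

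Protease inhibitors of other families were found in a list matched on words in the descriptions. The whole list held 22 described unigenes, of which 16 were higher in BDE-47, 5 were lower and 1 was not past the rule. As background, 36.1% of the 4077 described unigenes past the rule were higher in BDE-47. The median log2 ratio of the 22 was 3.01, or 2.86 from fragments per library total with a control of 0 set to 3 fragments, against -1.19 and -1.22 for all 4337 described unigenes. The WAP and Cvsi-2 unigenes make up 8 of the 16, and they hold those picked for their ratio. Without these families, 8 were higher and 5 lower, with a median log2 ratio of 1.17.

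Unigenes matched to Kunitz inhibitors of serine proteases, or to papilin, went both ways. Of 5 such unigenes, 3 were higher and 2 lower, and Unigene57498 is one of the higher ones. Unigene34656 is named for papilin in Nr and for caltrin-like protein 2 of the guinea pig in Swiss-Prot. The second name gives no Kunitz domain, and the domains of Unigene34656 were not examined, so it could belong with the WAP unigenes instead. It had 179 fragments in BDE-47 and 39 in the control, a ratio of 4.49 (3.16 to 6.53). Unigene19170, another papilin match, had 131 fragments in BDE-47 and 415 in the control, and was 3.24-fold lower (2.65 to 3.97). A papilin match was thus found on both sides. The Kunitz unigenes summed to 483 fragments in BDE-47 and 503 in the control.

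Alpha-2-macroglobulins and their relatives, large proteins that trap proteases of several classes and mark microbes in innate immunity, were higher in 4 unigenes and lower in 1. Unigene20319, a thioester-containing protein whose Swiss-Prot match is CD109, had 2003 fragments in BDE-47 and 221 in the control, a ratio of 8.87 (7.72 to 10.2). Unigene57674, also matched to CD109, had 201 fragments in BDE-47 and 22 in the control, a ratio of 8.95 (5.75 to 14.6). Both had more control fragments than any WAP or Cvsi-2 unigene, and so their ratios are tighter, more so for Unigene20319 than for Unigene57674 with its 22. Unigene36826, matched to a macroglobulin domain protein, had 161 fragments in BDE-47 and 76 in the control, a ratio of 2.07 (1.57 to 2.76). The family summed to 2406 fragments in BDE-47 and 355 in the control.

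The inhibitors left over were few. CL440.Contig2, which resembles a tissue inhibitor of metalloproteinases, had 936 fragments in BDE-47 and 406 in the control, a ratio of 2.26 (2.01 to 2.54). Unigene26836, matched to an earthworm chymotrypsin inhibitor but with its first Nr match in a ciliate, had 584 fragments in BDE-47 and 234 in the control, a ratio of 2.44 (2.10 to 2.86). CL7306.Contig2, matched to dipetalogastin, a thrombin inhibitor of a blood-feeding bug, had 262 fragments in BDE-47 and 516 in the control, and was 2.01-fold lower (1.73 to 2.34). The 5 contigs of its cluster together were not lower, at 1482 fragments in BDE-47 and 1186 in the control. A cystatin B match (Unigene73015), of a family that inhibits cysteine proteases, had 19 fragments in BDE-47 and 54 in the control and was chosen after its values were seen. Unigenes matched on serpin or Kazal words numbered 0, and an inhibitor of these families named otherwise was not counted there. The list covers only unigenes that the authors called.

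**Figure D2:**
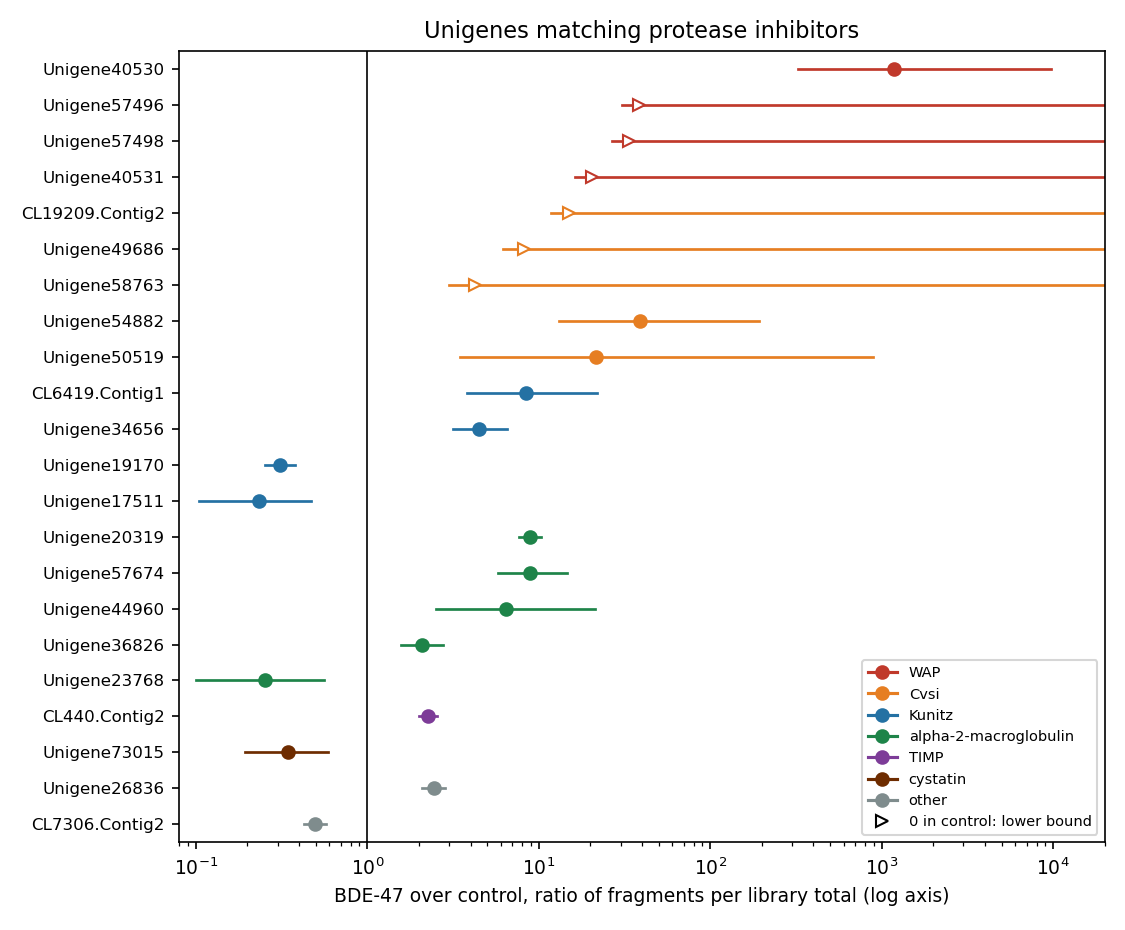
Ratio of BDE-47 over control, as fragments per library total on a log axis, for the 22 described unigenes that match protease inhibitors, coloured by family with exact 95% counting intervals. Open triangles are lower bounds against 3 control fragments, and their intervals have no upper end. Unigene57498 matches both WAP and Kunitz proteins and is drawn with WAP. The WAP and Cvsi-2 unigenes all lie right of 1, and 5 of the other 13 lie left of it.

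**Figure D3:**
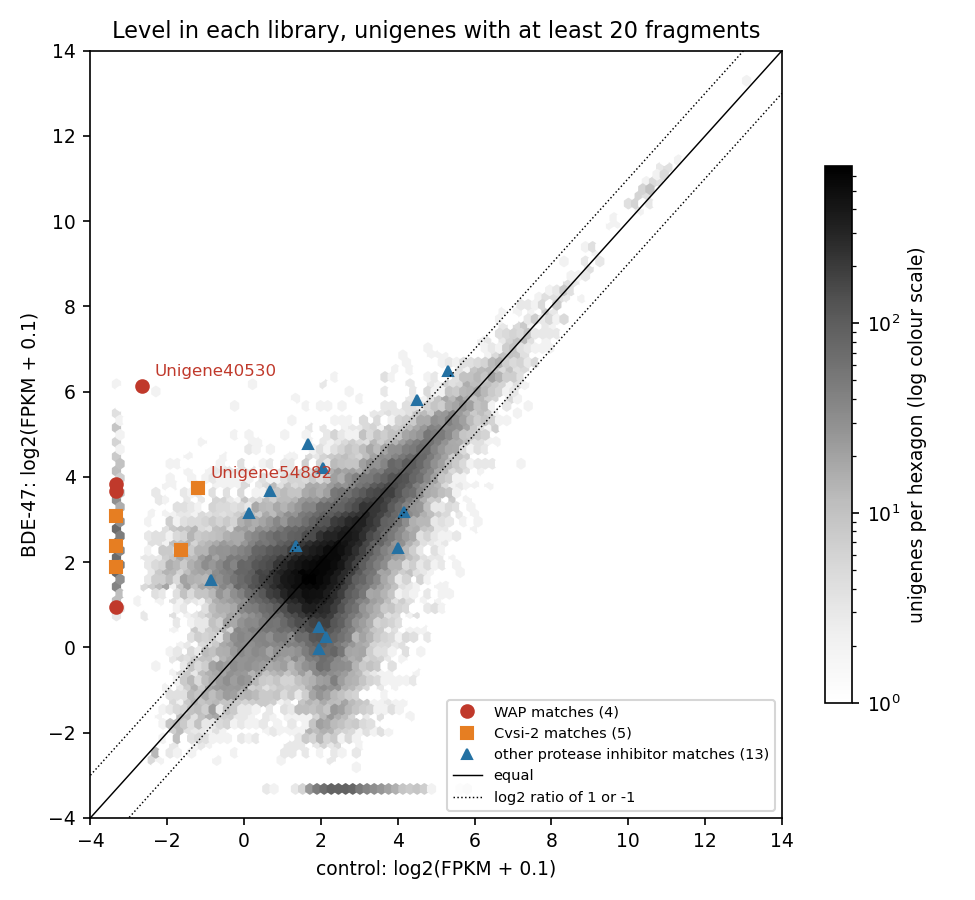
Level in the BDE-47 library (vertical) against the control library (horizontal), both as log2 of FPKM plus 0.1, for all unigenes with at least 20 fragments (grey, darker with more unigenes), with protease inhibitor matches overlaid, including Unigene58763 with 13 fragments. The 9 WAP and Cvsi-2 matches lie far to the left, at low or no control level, while the other 13 inhibitor matches lie closer to the line of equal level.

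Unigenes matched on protease words went both ways, but not all of these matches are sure to be proteases. Of those past the rule, 54.5% of serine, 60% of cysteine and 41.7% of metalloprotease matches were higher in BDE-47. The background share of all described unigenes past the rule was 36.1%. Of 23 unigenes matched on serine protease words, 12 were higher in BDE-47, 10 lower and 1 not past the rule, and they summed to 1741 fragments in BDE-47 and 1316 in the control. One of the lower ones, Unigene75489 (3 fragments in BDE-47 and 21 in the control), is named for endoplasmin, a chaperone and not a protease. Unigene9713, Unigene36318, Unigene37163 and Unigene21262, also lower, match a proprotein convertase in Swiss-Prot. Their first Nr matches are hypothetical proteins or a Patched domain protein, so their naming as proteases is doubtful. Unigene55748, a trypsin, had 198 fragments in BDE-47 and 0 in the control, at least 64.6-fold higher, with its first Nr match in the salmon louse, a parasitic copepod. Unigene14518, matched to plasma kallikrein, had 240 fragments in BDE-47 and 9 in the control, a ratio of 26.1 (13.5 to 57.8), and Unigene55166, with the same match, had 102 in BDE-47 and 4 in the control, a ratio of 24.97 (9.46 to 93.4). A trypsin-like contig (CL3006.Contig4) had 0 fragments in BDE-47 and 210 in the control, but the 4 contigs of its cluster summed to 11975 in BDE-47 and 8834 in the control. A thymus-specific serine protease match (CL8150.Contig1) was 3.12-fold lower (2.51 to 3.905, or 1.53-fold with its cluster summed). A neurotrypsin match (Unigene36686) was 2.53-fold lower (1.88 to 3.44), but its first Nr match is deleted in malignant brain tumors 1, not named as a protease. The same holds for Unigene53614 and Unigene54184, which were higher.

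Of 8 cysteine protease unigenes, 3 were higher and 2 lower. The most abundant, the cathepsin L-like CL2966.Contig2, a lysosomal and digestive protease, had 9135 fragments in BDE-47 and 17963 in the control, 2.01-fold lower (1.96 to 2.06). Its cluster of 6 contigs had 26773 in BDE-47 and 32786 in the control, 1.25-fold lower. Other cathepsins were higher, with ratios of 4.38 (3.22 to 6.05) for a cathepsin L (Unigene16870), 2.86 (2.24 to 3.69) for another (Unigene7230) and 2.20 (1.96 to 2.48) for cathepsin Z (CL18489.Contig2, 1.24 with its cluster summed). A calpain match (CL5889.Contig1), of a calcium-dependent protease family, was 2.63-fold lower (2.15 to 3.23), or 1.49-fold with its cluster summed. The cysteine protease unigenes summed to 10897 fragments in BDE-47 and 19093 in the control.

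Of 27 unigenes matched on metalloprotease words, 10 were higher and 14 lower, and not all of them are named for metalloproteases. Unigene67189, among the lower (175 fragments in BDE-47 and 456 in the control), is named for the serine carboxypeptidase CPVL. CL6419.Contig1, among the higher (60 in BDE-47 and 7 in the control), is named for a lysosomal Pro-X carboxypeptidase, a serine enzyme, in Nr and for a Kunitz protein in Swiss-Prot, and it counts under Kunitz too. Unigene33163, among the lower (33 in BDE-47 and 77 in the control), is named for ADAMTS-like proteins, which lack the protease domain. Unigene56300, matched to matrix metalloproteinases, had 2006 fragments in BDE-47 and 29 in the control, a ratio of 67.7 (47.0 to 101). A neprilysin match (Unigene53125), of a family that degrades peptides, had 131 fragments in BDE-47 and 3 in the control, a ratio of 42.8 (14.3 to 210.01). An ADAM10 match (CL16471.Contig3), of a family that sheds membrane proteins, had 230 in BDE-47 and 16 in the control, a ratio of 14.1 (8.48 to 25.04), whereas the 4 contigs of its cluster summed to a ratio of 1.64. Lower ones included an NPEPL1-like aminopeptidase (Unigene10208, 3.04-fold), a puromycin-sensitive aminopeptidase (CL4435.Contig1, 2.88-fold) and aminopeptidase N (CL5906.Contig1, 2.75-fold).

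The described unigenes whose levels in the 2 libraries were nearest to those of Unigene40530, by distance in log2 of FPKM plus 0.1, mostly had uninformative names. The nearest was Unigene41845, matched to a hypothetical protein, with 2389 fragments in BDE-47 and 4 in the control at a distance of 0.41. Next came CL717.Contig7 (0.44), GTPase IMAP family member 7 (CL20266.Contig1, 0.51), a proline-rich protein (CL717.Contig1, 0.68) and a mucin-5AC match (Unigene49441, 0.76). Nearest to Unigene54882 were a match to the engulfment receptor CED-1 of Caenorhabditis elegans (CL5502.Contig1, 0.31), CL15437.Contig1 (0.36), vitelline membrane outer layer protein 1 (Unigene55916, 0.39), Unigene56014 (0.42) and Unigene56690 (0.44). Unigene55916 had 237 fragments in BDE-47 and 6 in the control. None of these 10 matched a protease inhibitor, and with 2 libraries the distance describes levels only.

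Markers of other tissues and organisms also differed between the libraries. Against 36.1% of all described unigenes past the rule, 85% of mantle and shell, 88.9% of copepod and 18.8% of ciliate matches were higher. Of 21 described mantle and shell unigenes, 17 were higher and 3 lower, and without the perlwapin match the other 20 summed to 50539 fragments in BDE-47 and 2195 in the control. Of these 20, 4 were at 0 in the control: a shematrin match and 3 tyrosinase-like unigenes. The most abundant were a match to the nacre protein PIF (Unigene56099, 18847 fragments in BDE-47 and 16 in the control), a tyrosinase-like unigene (Unigene44351, 10893 in BDE-47 and 24 in the control) and another PIF match (Unigene41963, 9354 in BDE-47 and 19 in the control). Of 26 unigenes whose first Nr match is a copepod, 16 were higher and 2 lower. They summed to 2371 fragments in BDE-47 and 102 in the control, with 23 of 26 at 0 in the control. Of the 68 with a first Nr match in a ciliate, 12 were higher and 52 lower. No WAP or Cvsi-2 unigene had a first Nr match labelled as a copepod or ciliate. However, Unigene54882 had no Nr match, and the Nr matches of Unigene49686 and Unigene50519 name no organism, so these could not be assigned. The part of mantle tissue and of other organisms in the WAP and Cvsi-2 values was not tested.

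The labelled tissue could be checked only through unigenes that the authors called. Of 45 described digestive enzyme unigenes, 30 were higher and 11 lower, with a sum of 17095 fragments in BDE-47 and 21231 in the control. The cathepsin L-like CL2966.Contig2 made up most of the control sum, and endochitinase and amylase unigenes were among those with 0 to 3 control fragments. Both unigenes matched on blood cell words were lower in BDE-47 (357 fragments in BDE-47 and 795 in the control). Both match a glutamyltransferase enzyme with hemocyte in its name, so they may not mark blood cells. Unigenes matched on cilia words had 2 higher and 17 lower (2734 fragments in BDE-47 and 4826 in the control). Among the most abundant of them, CL2054.Contig1 (lower) and CL3910.Contig6 (higher) match a cytoplasmic dynein light chain, which is not particular to cilia. Those matched on muscle words had 6 higher and 13 lower (2653 in BDE-47 and 4988 in the control), though the most abundant of them match non-muscle myosin. Those matched on gonad words had 18 higher and 18 lower (16609 in BDE-47 and 14586 in the control), though the most abundant of them matches an alpha tubulin. Mucin matches had 11 higher and 18 lower (5151 in BDE-47 and 5191 in the control). None of these lists was checked as a marker of a cell type in this clam. Of those past the rule, the share higher was 73.2% for digestive enzymes, 50% for gonad and 10.5% for cilia. Muscle (31.6%) and mucin (37.9%) were near the 36.1% of all described unigenes past the rule.

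**Figure D4:**
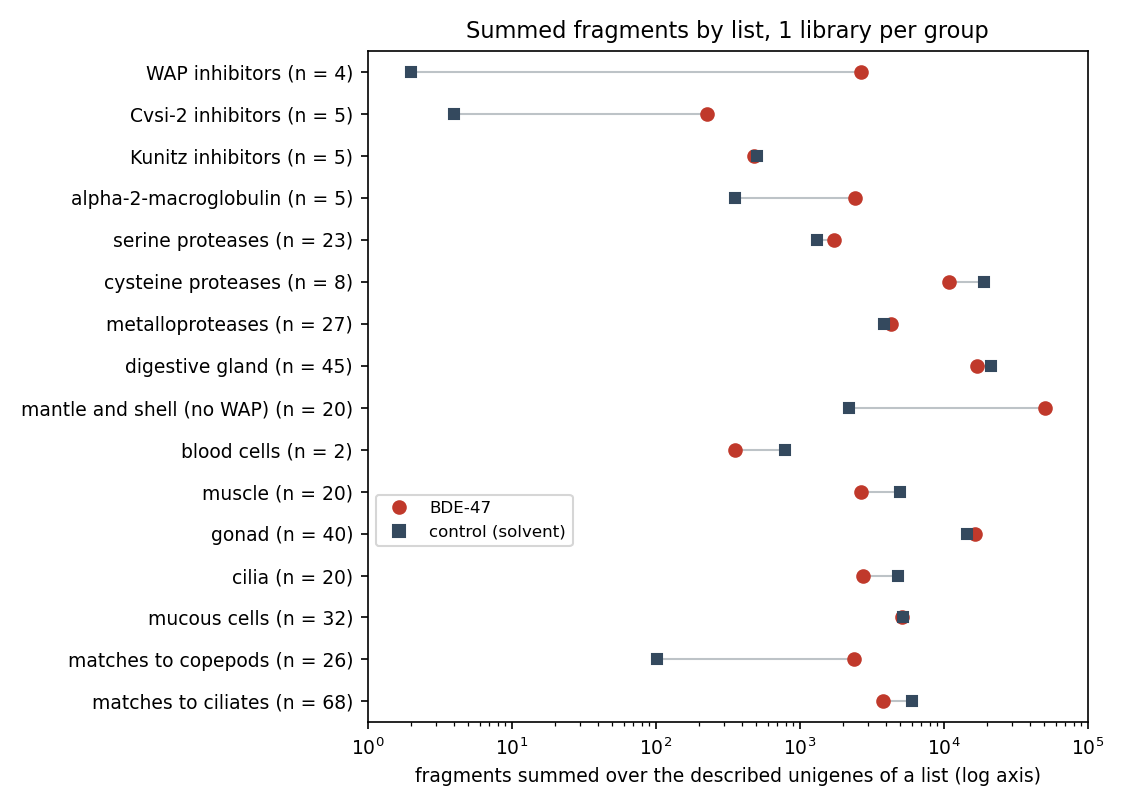
Fragments summed over the described unigenes of each list in the BDE-47 library (red circles) and the control library (dark squares), on a log axis. Sums of WAP and Cvsi-2 matches, of mantle and shell unigenes and of copepod matches lie far apart between the libraries. Kunitz, metalloprotease and mucin sums lie close together, but single unigenes weigh on them. Unigene56300 alone supplied 2006 metalloprotease fragments in BDE-47 and 29 in the control. Unigene49441 alone supplied 1881 mucin fragments in BDE-47 and 3 in the control. Unigene57498 counts under both WAP and Kunitz, and CL6419.Contig1 under both Kunitz and metalloprotease.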

How the data were processed

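Per the labels' protocols, poly(A) RNA of the digestive gland was sequenced by Illumina HiSeq. Per the file headers, the deposited counts are raw fragments on 124752 unigenes, 15.9 M in BDE-47 and 15.6 M in the control. The authors' deposited FPKM values and log2 ratios (an FPKM of 0 set to 0.001) were recomputed from the counts to within rounding. The authors deposited a p-value and false discovery rate from an unstated test, and bit scores and E-values of database matches for 17625 called unigenes, of which 4337 carry an Nr or Swiss-Prot description. Per the submitters' processing notes CASAVA 1.5 was used, and which programs assembled, aligned and counted is not stated.

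Here each ratio is of fragments per library total, with an exact conditional binomial (Clopper-Pearson) 95% interval, computed with Python 3.11.15 and SciPy 1.17.1. TMM factors came from edgeR 4.0.16. No test between conditions was possible with 1 library per group. The call rule was tested on simulated data. A count of 0 was replaced by 3 fragments for bounds. The members, lists and alternatives were chosen with earlier results of these data known. Named are the 2 picked unigenes; per inhibitor family and protease class up to 3 higher and 3 lower unigenes with at least 100 fragments, by log2 ratio; the 5 nearest unigenes to each picked one; and the 3 most abundant of a marker list where they bear on a result. Lists matched words in the first Nr or the Swiss-Prot description, and chance matches were left in. Alternatives were other scaling, pseudocounts, fragment minimums, ratio thresholds, the authors' calls, summed clusters, 1 unigene per description and dropping ciliate and copepod matches. First Nr matches in algae or bacteria numbered 0.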

Additional observations from a re-analysis of the deposited data

How the results depend on the processing

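Both inhibitor unigenes stayed higher in BDE-47 under every alternative run. They were picked with these ratios known, and no setting tried could have reversed ratios so large, so the kept direction carries no weight. Their log2 ratios were 8.86 and 5.03 with TMM factors, which shift ratios by 0.12, while the median log2 ratio of all unigenes with at least 20 fragments was -0.11. With a pseudocount of 1 FPKM the WAP value fell to a log2 ratio of 6.06, and it was 10.20 with none. That fall was larger than the distance from the middle to an end of its counting interval in log2. The minimum of 20 fragments and the ratio threshold set the size of the counts. Without a minimum 17626 unigenes were higher. With a minimum of 100 fragments 2789 were higher and 3988 lower, and 10 and 2 in the inhibitor list. With a log2 ratio of at least 2, 4381 were higher and 5164 lower, and in the inhibitor list 13 were higher and 0 lower. Without the WAP and Cvsi-2 families, an alternative added after seeing the data, 8 inhibitors were higher. Of 50 recomputed values 40 stayed close. Close meant within the distance from the middle to an end of the interval in log2 for ratios, and within 1.5 times for counts. Leaving out a replicate could not be done with 1 library per group. No paired analysis was possible because each group has 1 library. Control counts of 0 to 3 fragments limit every WAP and Cvsi-2 ratio.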

Other observations

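The counts of each picked unigene were also used as limits, which describes the choice and carries no weight. By log2 ratio with 0.1 FPKM added, Unigene40530 ranked 19 from the top, so other unigenes were more one-sided. With at least 2397 fragments in BDE-47 and at most 2 in the control there were 2 unigenes, Unigene40530 included, and none had the reverse pattern. With the counts of Unigene54882 as limits (at least 120 in BDE-47 and at most 3 in the control) there were 123 unigenes high in BDE-47, of which 45 carry a description. The reverse pattern, at most 3 fragments in BDE-47 and at least 120 in the control, was found in 64, of which 10 carry a description.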
